A study of Mus musculus with 6 samples.

Results

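The EGF system of the epidermis was examined in primary mouse keratinocytes with and without iASPP, the protein encoded by *Ppp1r13l*. The genes were the 3 ErbB receptors *Egfr*, *Erbb2* and *Erbb3*, the 6 ligands *Ereg*, *Tgfa*, *Hbegf*, *Areg*, *Epgn* and *Btc*, and the receptor inhibitor *Errfi1*. They were chosen by gene name and not by a cutoff on their values, though with earlier results of these data known. They are 10 of the 55367 gene names in the count table. RNA-sequencing was available for 6 cultures of keratinocytes isolated from the skin of neonatal pups of the genotype Ppp1r13lflox/flox;Cre+ERT, on a mixed background of C57BL/6 and 129/Sv. All 6 cultures carried the floxed alleles and the Cre-ERT, a recombinase expressed from the ubiquitous ROSA26 locus that acts once tamoxifen is given. The cultures formed 3 batches, each with 1 culture given tamoxifen when the medium was changed after 24 h (iASPP KO) and 1 culture left without it (iASPP WT). No iASPP WT culture received tamoxifen and no culture without Cre was analysed here, so an effect of the drug or of Cre activity and an effect of the deletion cannot be told apart. Whether a batch came from 1 pup or from several is not given in the sources used here, so p-values measure the spread between these cultures. Per the study's methods, the low-calcium medium in which the cells were plated was supplemented with EGF. Whether the medium given at the change after 24 h also held EGF is not stated there.

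EGFR and its relatives ERBB2 and ERBB3 are receptor tyrosine kinases that signal in pairs. EGFR is activated by EGF, epiregulin, TGF-α, HB-EGF, amphiregulin, epigen and betacellulin, whereas ERBB2 has no known ligand of its own and ERBB3, which binds neuregulins, has little kinase activity and signals through its partner. The ligands are made as membrane-anchored precursors and are released by metalloproteases such as ADAM17. In the epidermis, keratinocytes make both the ligands and the receptors, and this autocrine loop is known for its roles in proliferation, wound healing and inflammation. MIG6, the product of *Errfi1*, binds the activated receptor kinase and inhibits it, and its gene is itself switched on by EGFR signaling.

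The part that the ligands have in common is the EGF-like domain, folded by 3 disulfide bonds between 6 cysteines, and the coding stretches of 5 of them are shown because the ligand comparisons below rest on telling these related transcripts apart. Each runs from the first to the last of the 6 cysteine codons, which are in capitals, 5′ to 3′ on the coding strand, in the named transcript of GENCODE vM21 (GRCm38).
Ereg-201, coding bases 181 to 288: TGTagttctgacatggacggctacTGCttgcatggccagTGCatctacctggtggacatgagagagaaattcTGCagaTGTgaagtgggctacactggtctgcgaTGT
Tgfa-201, coding bases 136 to 243: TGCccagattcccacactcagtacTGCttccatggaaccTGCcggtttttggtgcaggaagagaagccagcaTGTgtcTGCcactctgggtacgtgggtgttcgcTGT
Epgn-201, coding bases 175 to 282: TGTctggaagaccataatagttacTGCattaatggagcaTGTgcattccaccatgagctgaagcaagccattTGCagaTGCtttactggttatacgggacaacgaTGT
Areg-201, coding bases 415 to 522: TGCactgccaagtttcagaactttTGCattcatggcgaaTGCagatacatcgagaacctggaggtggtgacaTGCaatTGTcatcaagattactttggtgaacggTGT
Btc-201, coding bases 205 to 312: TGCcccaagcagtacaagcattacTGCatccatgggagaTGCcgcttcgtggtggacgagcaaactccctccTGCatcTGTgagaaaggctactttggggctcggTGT
The cysteine spacing was the same in all 5 stretches, each 108 bases long, while most of the codons between the cysteines differed. A scan for the spacing of this family found it in 16 of 21591 protein-coding genes, or 0.0741%, and these 16 held all 6 ligands. At the nucleotide level the transcripts were distinct. Of all windows of 42 bases, the read length, in the protein-coding transcripts of each gene, none was shared with another gene except for 30 of 11002 windows in *Egfr*, or 0.273%.

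The checks of the cultures came out as follows. *Ppp1r13l* (chr7:19359749-19378533) was counted 320, 395 and 139 times with tamoxifen in batches 1, 2 and 3 and 697, 1100 and 472 times in the iASPP WT partners. The groups did not overlap, and the log2 fold change was -1.45 (SE 0.18, adjusted p = 0.00296). This and every other adjusted p comes from the quasi-likelihood test of edgeR with a batch term, with Benjamini-Hochberg adjustment over all 14916 genes tested. Library totals ran from 20202517 to 25157117 counts, and levels are given as CPM, the counts of a gene relative to its library's total scaled by the TMM factor of edgeR, on which scale 3 counts corresponded to 0.123 to 0.14 CPM. Keratinocyte markers such as *Krt5* and *Krt14* had summed levels of 29800 to 33100 CPM in iASPP KO and 31200 to 36600 CPM in iASPP WT, and 0 of the 12 passed the test. Other markers moved with the condition or the batch. Of 12 cycling cell markers, 10 were lower in iASPP KO, and their summed level was 167, 158 and 600 CPM against 466, 394 and 1090 CPM in batches 1, 2 and 3. Of 12 suprabasal markers 3 were higher in iASPP KO (*Sbsn*, *Tgm1* and *Tgm3*) and 2 lower (*Krt10* and *Flg*), and their summed level was 1150 and 1180 CPM in the cultures of batch 3 against 3060 to 4070 CPM in the other 4. Fibroblast markers summed to 530 and 774 CPM in batch 3 and to 68.4 to 91.2 CPM elsewhere, and 2 of 12 were lower in iASPP KO (*Col3a1* and *Col1a2*).

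Of the 10 genes, *Ereg* was higher and *Egfr* lower in iASPP KO keratinocytes, and the other 8 did not pass the test. The shares called over all tested genes were 2.17% higher and 1.95% lower, or 4.12% in either direction. At an unadjusted p under 0.05, 4 of the 10 genes passed (*Egfr*, *Erbb2*, *Ereg* and *Tgfa*), against 16.7% of tested genes. All 10 passed the filter on low counts. In no gene did the 3 iASPP KO levels lie wholly above or below the 3 iASPP WT levels, which held for 10.7% of tested genes. Within batches, 4 of the 10 (*Egfr*, *Erbb2*, *Ereg* and *Tgfa*) moved the same way in all 3, near the share of 39.1% over all tested genes.

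**Figure D1:**
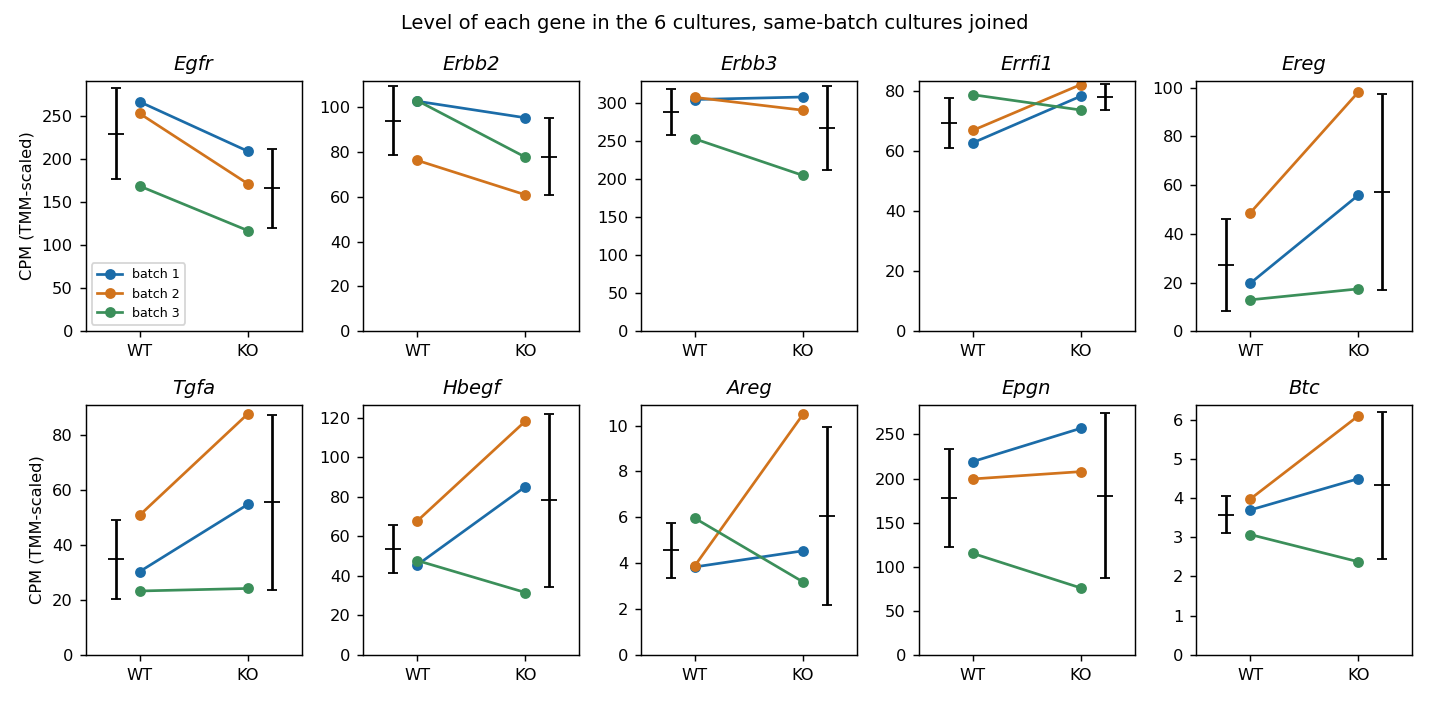
Level of each gene in CPM (y axis, from 0, scaled by TMM factors) in the iASPP WT and iASPP KO culture of each batch, with lines joining the cultures of a batch and bars at the side for the mean ± SD of 3 cultures. The lines of *Egfr* fall and those of *Ereg* rise in every batch, while those of *Hbegf*, *Areg*, *Epgn* and *Btc* go up in batches 1 and 2 and down in batch 3.

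Among the receptors, *Egfr* (chr11:16752203-16918158, plus strand), the receptor of all 6 ligands, stood at 209, 171 and 117 CPM in iASPP KO (batches 1, 2 and 3) and at 267, 253 and 169 CPM in iASPP WT. The iASPP KO culture was the lower of the pair in each batch, although the iASPP KO cultures of batches 1 and 2 exceeded the iASPP WT culture of batch 3. The mean was 166 ± 46.4 CPM (SD, n = 3) against 229 ± 53.0 CPM (SD, n = 3), and the fitted log2 fold change was -0.48 (SE 0.11, adjusted p = 0.04), a level 0.717 times that of iASPP WT. The 3 ratios were 0.785 (95% counting interval 0.755 to 0.816), 0.678 (0.651 to 0.706) and 0.694 (0.66 to 0.729), from exact binomial limits that cover counting error only. The interval of batch 1 lay above those of batches 2 and 3, which overlapped. The call was lost without batch 1 (log2 fold change -0.54, adjusted p = 0.102) or without batch 2 (-0.44, adjusted p = 0.28) and kept without batch 3 (-0.46, adjusted p = 0.0047).

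*Erbb2* (chr11:98412470-98437716, plus strand), the preferred partner of the other receptors, had 95.2, 60.9 and 77.7 CPM in iASPP KO and 103, 76.2 and 103 CPM in iASPP WT. Its ratios were below 1 in every batch at 0.928 (0.874 to 0.986), 0.798 (0.744 to 0.857) and 0.755 (0.71 to 0.803), but the log2 fold change of -0.28 (SE 0.12) did not pass the test (adjusted p = 0.269). The protein-coding gene *Mien1* overlaps *Erbb2* on the opposite strand and had a log2 fold change of 0.82 (SE 0.15, adjusted p = 0.0171), opposite in sign to that of *Erbb2*, and per the file header reads were counted by strand. *Erbb3* (chr10:128567523-128589652, minus strand), the neuregulin receptor, had 308, 291 and 205 CPM in iASPP KO and 305, 308 and 253 CPM in iASPP WT. In batch 1 the cultures differed by less than counting error, with a ratio of 1.01 (0.977 to 1.05), and the ratio was 0.945 (0.914 to 0.977) in batch 2 and 0.81 (0.779 to 0.841) in batch 3. The log2 fold change of *Erbb3* was -0.12 (SE 0.11, adjusted p = 0.67).

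Among the ligands, *Ereg* (chr5:91074622-91093646, plus strand), which encodes epiregulin, had 55.9, 98.3 and 17.4 CPM in iASPP KO (batches 1, 2 and 3) and 19.7, 48.6 and 12.9 CPM in iASPP WT. The iASPP KO culture was the higher of the pair in each batch, but the batches differed so widely that the groups overlapped, and the iASPP KO culture of batch 3 lay below the iASPP WT cultures of batches 1 and 2. The means were 57.2 ± 40.5 CPM against 27.1 ± 19.0 CPM (SD, n = 3 each). The fitted log2 fold change was 1.00 (SE 0.19, adjusted p = 0.0204), or 1.99-fold, at the 94.3 percentile of all tested genes. The ratio was 2.84 (2.54 to 3.18) in batch 1, 2.02 (1.88 to 2.17) in batch 2 and 1.35 (1.16 to 1.57) in batch 3, and these intervals did not overlap one another. Left out in turn, batch 1 gave 0.74 with an adjusted p of 0.0866, batch 2 gave 0.98 with an adjusted p of 0.112, and batch 3 gave 1.25 with the call kept at an adjusted p of 3.87e-14.

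*Tgfa* (chr6:86195223-86275719, plus strand), which encodes TGF-α, had 54.8, 87.8 and 24.2 CPM in iASPP KO and 30.4, 50.9 and 23.3 CPM in iASPP WT. The ratios of 1.81 (1.64 to 1.99) in batch 1 and 1.73 (1.61 to 1.85) in batch 2 were similar, whereas the cultures of batch 3 differed by less than counting error at 1.04 (0.922 to 1.17). The log2 fold change over the batches was 0.57 (SE 0.17), with an unadjusted p of 0.00744, and it did not pass the adjusted threshold (adjusted p = 0.107). Without batch 3 it was 0.82 (adjusted p = 2.39e-06).

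*Hbegf* (chr18:36504927-36515805, minus strand), which encodes HB-EGF, had 85.2, 118 and 31.6 CPM in iASPP KO and 45.6, 67.8 and 47.8 CPM in iASPP WT. Its ratio was 1.87 (1.73 to 2.02) in batch 1 and 1.74 (1.64 to 1.86) in batch 2 but 0.661 (0.601 to 0.727) in batch 3, each beyond counting error. The log2 fold change over the batches was 0.39 (SE 0.25, adjusted p = 0.509), and without batch 3 it was 0.85 (adjusted p = 3.88e-08). *Hbegf* thus passed the test only among batches 1 and 2 in the alternatives run.

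*Epgn* (chr5:91027464-91035215, plus strand), which encodes epigen, had 257, 208 and 76.0 CPM in iASPP KO and 219, 200 and 115 CPM in iASPP WT. The means of 180 ± 93.6 CPM and 178 ± 55.2 CPM (SD, n = 3 each) were close, and the log2 fold change was -0.10 (SE 0.16, adjusted p = 0.821). The sign differed between batches, with ratios of 1.17 (1.13 to 1.22) and 1.04 (1 to 1.08) in batches 1 and 2 and of 0.659 (0.62 to 0.7) in batch 3. *Areg* (chr5:91139599-91148432, plus strand), the amphiregulin gene, was measured with 75 to 234 counts per library, at 4.54, 10.5 and 3.18 CPM in iASPP KO and 3.84, 3.89 and 5.96 CPM in iASPP WT. Its highest level, in the iASPP KO culture of batch 2, gave a ratio of 2.69 (2.11 to 3.46), set against 1.18 (0.876 to 1.6) in batch 1 and 0.534 (0.397 to 0.714) in batch 3. The log2 fold change of *Areg* was 0.27 (SE 0.44, adjusted p = 0.832). *Btc* (chr5:91357261-91402994, minus strand), the betacellulin gene, had 56 to 136 counts per library, at 4.49, 6.10 and 2.38 CPM in iASPP KO and 3.70, 3.97 and 3.07 CPM in iASPP WT. Only the ratio of batch 2, at 1.53 (1.17 to 2.01), was beyond counting error, and the log2 fold change of *Btc* was 0.19 (SE 0.38, adjusted p = 0.869).

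*Errfi1* (chr4:150853919-150868892, plus strand), the feedback inhibitor, had 78.4, 82.3 and 73.8 CPM in iASPP KO and 62.8, 67.0 and 78.9 CPM in iASPP WT. The ratios were 1.25 (1.16 to 1.34) and 1.23 (1.15 to 1.31) in batches 1 and 2 and 0.935 (0.875 to 1) in batch 3. The log2 fold change was 0.17 (SE 0.13, adjusted p = 0.583).

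**Figure D2:**
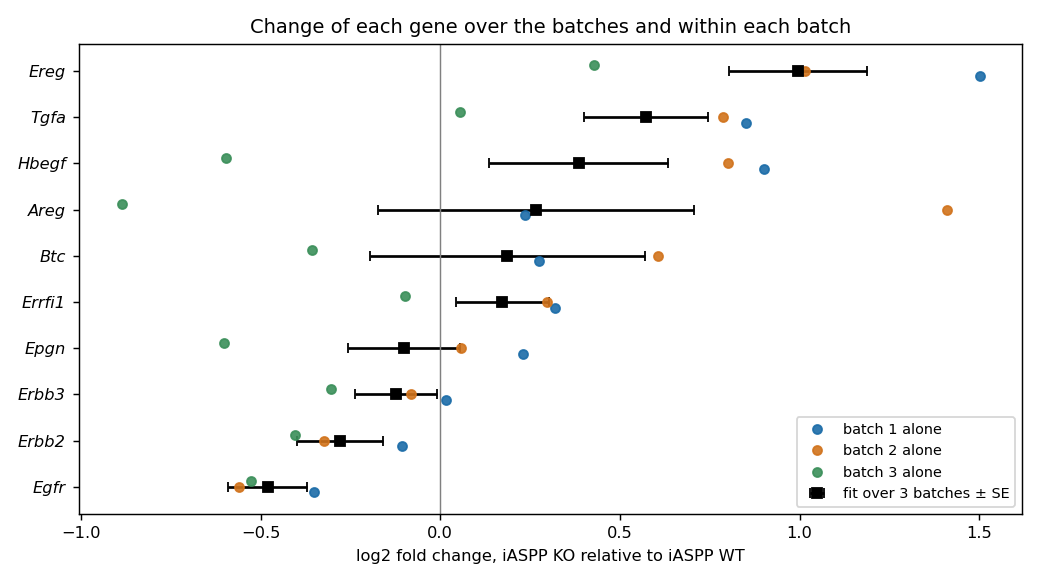
Log2 fold change between the conditions, with positive values for higher levels in iASPP KO (x axis), for each gene (y axis, ordered by the fitted value), as black squares with bars of ± SE for the edgeR fit over 3 batches and coloured points for each batch alone. The points of *Ereg* lie to the right of 0, the nearest at 0.43 in batch 3, those of *Egfr* lie to the left at -0.35, -0.56 and -0.53, and the batch 3 point of *Areg*, *Hbegf*, *Epgn* and *Btc* lies below 0.

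As a group, the ligands separated the batches. All 6 ligands were higher in the iASPP KO culture in batch 1 and all 6 in batch 2, with median log2 ratios of 0.56 and 0.79, whereas only *Ereg* and *Tgfa* were higher in batch 3, with a median of -0.48. Over all tested genes, the share higher in iASPP KO was 49.6% in batches 1 and 2 and 50.3% in batch 3, and the median log2 ratio was -0.01, 0 and 0. The receptors that were lower in iASPP KO numbered 2, 3 and 3 of 3 in the same order. With 1 pair of cultures per batch, a difference between batches in the effect of the deletion could not be tested. In batch 3, where 4 of the ligands had the opposite sign, the suprabasal markers were also low and the cycling and fibroblast markers high in both cultures (values above), and the part of these in the ligand values was not tested.

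Levels per length, given as RPKM (CPM per kilobase of the gene's exons), showed which of these genes dominated. In iASPP WT the order was *Epgn* at 98.5 ± 30.5 RPKM, *Erbb3* at 48.0 ± 5.11, *Egfr* at 20.3 ± 4.68, *Errfi1* at 19.4 ± 2.33, *Erbb2* at 18.0 ± 2.94, *Hbegf* at 11.1 ± 2.54, *Ereg* at 6.56 ± 4.60, *Tgfa* at 5.37 ± 2.21, *Areg* at 3.75 ± 0.995 and *Btc* at 0.792 ± 0.103 (SD, n = 3). The neighbours whose cultures did not overlap were *Epgn* and *Erbb3*, *Erbb3* and *Egfr*, *Erbb2* and *Hbegf*, and *Areg* and *Btc*, while *Egfr*, *Errfi1* and *Erbb2* overlapped, as did *Hbegf*, *Ereg*, *Tgfa* and *Areg* from neighbour to neighbour. In iASPP KO, *Epgn* at 99.7 ± 51.8 RPKM and *Erbb3* at 44.5 ± 9.19 again came first, and *Egfr* took the sixth place at 14.7 ± 4.09, after *Errfi1* at 21.8 ± 1.19, *Hbegf* at 16.2 ± 9.06 and *Erbb2* at 15.0 ± 3.30. *Ereg* at 13.9 ± 9.80 RPKM followed *Egfr* closely, and *Tgfa* at 8.57 ± 4.90, *Areg* at 4.99 ± 3.20 and *Btc* at 0.956 ± 0.413 came last. *Epgn* and *Erbb3* overlapped here, and from *Errfi1* down to *Areg* the ranges of all neighbours in the iASPP KO order overlapped. Within each of the 3 iASPP KO cultures, however, *Epgn* exceeded *Erbb3*, *Ereg* exceeded *Tgfa* and *Tgfa* exceeded *Areg*, and *Hbegf* exceeded *Ereg* in each iASPP WT culture. Among all tested genes *Epgn* stood at the 96.9 percentile of level and *Btc* at the 23.8 percentile.

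**Figure D3:**
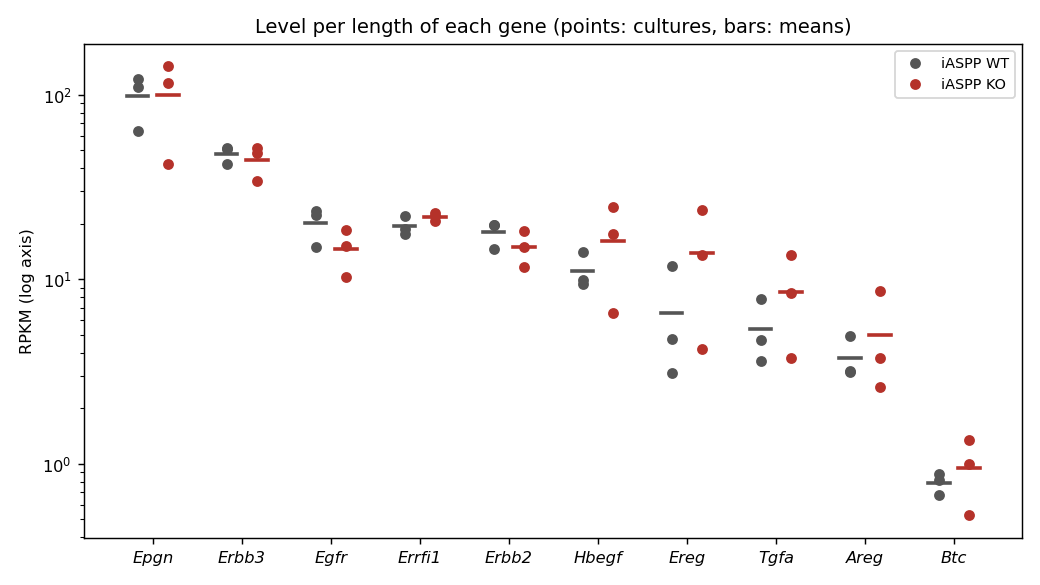
Level per length of each gene in RPKM (y axis, log scale) in the iASPP WT cultures (grey) and iASPP KO cultures (red), with a bar at the mean of 3 cultures and genes ordered by the iASPP WT mean. The mean of *Epgn* is the highest and that of *Btc* the lowest in both conditions, and the *Egfr* mean moves from 20.3 to 14.7 RPKM while that of *Ereg* moves from 6.56 to 13.9 RPKM.

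The makeup of the ligand transcripts was described as the share of each ligand in their summed RPKM, a measure within a culture that does not depend on library scaling. The shares of a set are tied to one another, so a share can change without a like change in level. *Epgn* made up 84.1%, 74.5% and 74.2% of the sum in iASPP WT in batches 1, 2 and 3 and 76.2%, 61.6% and 70.5% in iASPP KO, a smaller share in each batch. The share of *Ereg* was 3.31%, 7.95% and 3.63% in iASPP WT and 7.26%, 12.7% and 7.06% in iASPP KO, larger in each batch. *Tgfa* also had a larger share in each iASPP KO culture, with 4.53%, 7.25% and 6.25% against 3.25%, 5.29% and 4.18%. An exact two-sided sign-flip permutation test over 3 pairs cannot give a p below 0.25, and no other test was run on these shares. *Hbegf* had a larger share in iASPP KO in batches 1 and 2 (9.45% and 13.1% against 6.54% and 9.47%) but not in batch 3 (11% against 11.5%). Shares of *Areg* stayed at 2% to 5.7% and those of *Btc* at 0.533% to 0.881%. Among the receptors *Egfr* took a smaller share in each iASPP KO culture, with 21%, 20.1% and 17.4% against 25.1%, 25.4% and 19.4%, and *Erbb3* a larger one, with 58.2%, 64.3% and 57.4% against 54%, 58% and 54.8%. The level of *Erbb3* itself had ratios of 1.01, 0.945 and 0.81. The summed ligand RPKM per summed receptor RPKM was 2.12, 2.49 and 1.01 in iASPP KO and 1.53, 1.68 and 1.12 in iASPP WT, larger in iASPP KO in batches 1 and 2 and not in batch 3.

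**Figure D4:**
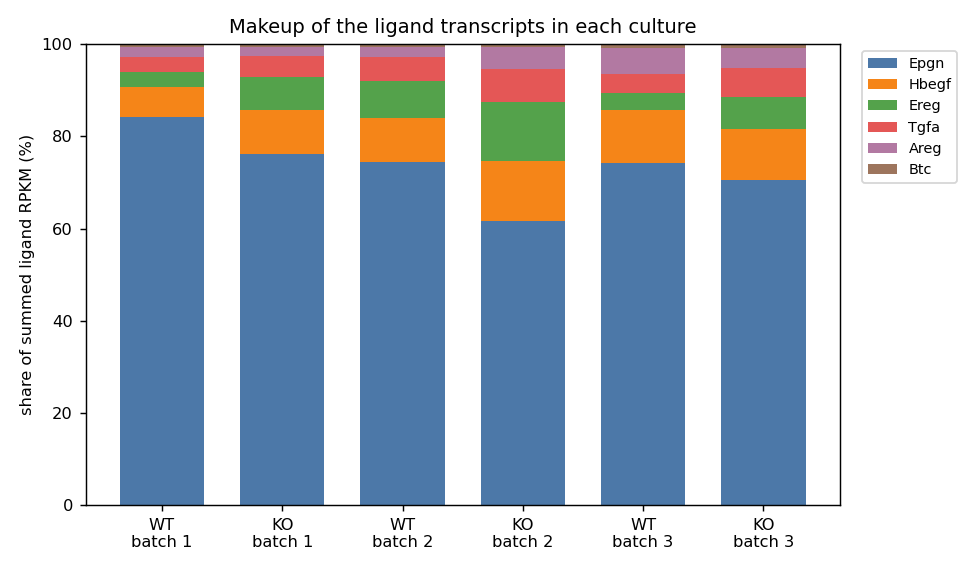
Share of each ligand in the summed ligand RPKM (y axis, percent) in the 6 cultures, as stacked bars ordered by batch. The *Epgn* segment is shorter in the iASPP KO bar than in its iASPP WT neighbour in every batch, and the *Ereg* and *Tgfa* segments are taller.

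The levels of several of these genes also differed between batches. The batch term of the same fit was tested jointly over the 3 batches. It passed for 4 of the 10, *Ereg* (adjusted p = 0.000647), *Epgn* (0.00291), *Tgfa* (0.00314) and *Egfr* (0.01), against 15.8% of all tested genes. Each of the 4 was lowest in batch 3, by a log2 difference from the mean of the other batches of -1.67 for *Ereg*, -1.23 for *Epgn*, -1.13 for *Tgfa* and -0.66 for *Egfr*. The range of batch means was 2.20 on the log2 scale for *Ereg*, against its fold change of 1.00 between conditions, and 1.34 for *Epgn*, against 0.10. A range over 3 batch means is not the same measure as a difference between the conditions and tends to be wider. *Hbegf* also lay lowest in batch 3, by -0.94, without passing (adjusted p = 0.0658). *Errfi1* had a range of only 0.12 between batches (adjusted p = 0.847). *Erbb2* had a range of 0.54 (adjusted p = 0.0641 for the batch term) and was 0.12 higher in batch 3 than in the mean of the others. The labels do not say what sets a batch apart beyond its number, and batch 3 was also the batch with few suprabasal and many fibroblast and cycling transcripts, whose part in these levels was not tested.

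**Figure D5:**
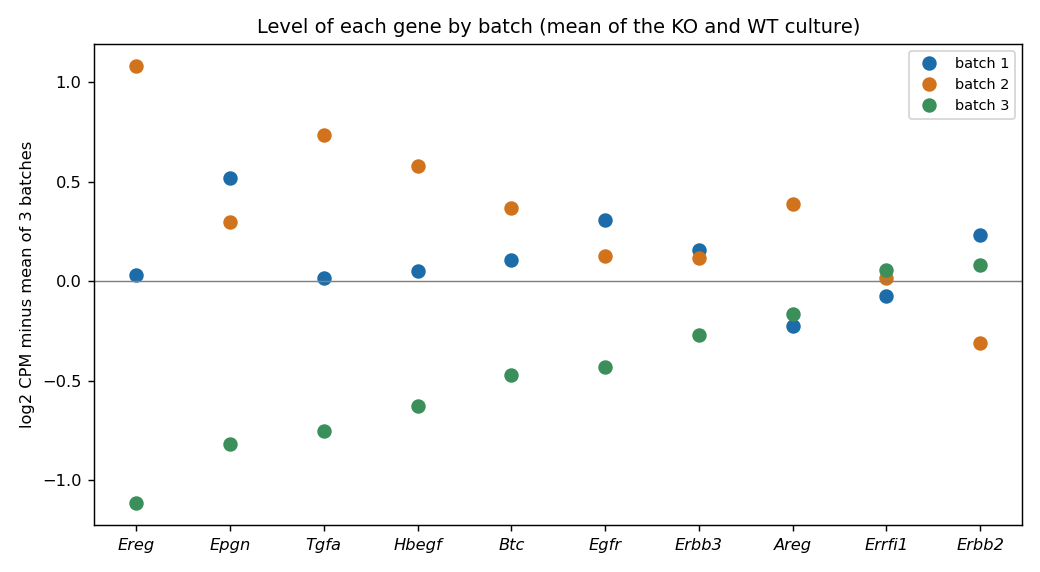
Level of each gene in each batch, as the log2 CPM mean of the iASPP KO and iASPP WT culture minus the mean of the 3 batches (y axis), with genes ordered by the batch 3 value. Batch 3 is the lowest for *Ereg*, *Epgn*, *Tgfa*, *Hbegf*, *Btc*, *Egfr* and *Erbb3*, and the 3 points of *Errfi1* lie within 0.12 of one another.

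Over the 6 cultures the levels of several genes ran in parallel. As descriptions over 6 libraries that share the batch and condition differences above, Pearson's r of log2 CPM was 0.992 for *Ereg* with *Tgfa*, 0.915 for *Ereg* with *Hbegf*, 0.965 for *Hbegf* with *Btc*, 0.975 for *Erbb3* with *Epgn* and 0.904 for *Egfr* with *Erbb3*. *Egfr* and *Errfi1* had an r of -0.596, and *Ereg* and *Erbb2* of -0.683. Among 8771 tested genes with a mean of at least 10 CPM, the profiles close to that of *Egfr* over the 6 libraries included those of *Sec31a* (r = 0.989), a coat component of vesicles leaving the endoplasmic reticulum, and *Tsc22d2* (0.986). Neither passed the test, with log2 fold changes of -0.22 (adjusted p = 0.355) and -0.31 (adjusted p = 0.206). The profiles most like that of *Ereg* were those of *Ubtd1* (r = 0.998), *Card14* (0.997), a scaffold of NF-κB signaling in keratinocytes, and *Rhou* (0.996), with log2 fold changes of 0.31, 0.57 and 0.48 that did not pass the test (adjusted p = 0.359, 0.103 and 0.0628).

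Of the 6 ligand genes, 4 lie side by side on chromosome 5 (GRCm38) within 375531 bases. *Epgn* is followed by *Ereg* after 39406 bases, by *Areg* after a further 45952 and by *Btc*, on the opposite strand, after a further 208828. Their log2 fold changes were -0.10 (SE 0.16), 1.00 (SE 0.19), 0.27 (SE 0.44) and 0.19 (SE 0.38) in that order. Of the 4 only *Ereg* passed the test, and the genes were not tested against one another. The protein-coding genes that flank the group, *Mthfd2l*, an enzyme of mitochondrial folate metabolism, and *Parm1*, had log2 fold changes of -0.45 (adjusted p = 0.548) and 0.50 (adjusted p = 0.592). Promoter sequences from RefSeq (GRCm38.p6), with 250 bases before and 50 after the start site, were found for 7 of the 10 genes, with no entry for *Erbb3*, *Ereg* and *Hbegf*. Motifs of the AP1 and CREB families were searched on both strands because AP1 is a known regulator of EGF ligand genes. The AP1 motif TGANTCA was in none of these promoters, against 7.81% of 32851 promoters. The cyclic AMP response element TGACGTCA, present in 1.79% of all promoters, was in that of *Areg*, at -61 from the start, and in 1 of the alternative promoters of *Errfi1*, at -51.

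Other genes of the pathway were taken from lists by role, 84 genes in all, not all of which could be tested. Of those tested 1 passed and was lower, beside 4.12% of all tested genes called in either direction and 1.95% called lower. Of the remaining ErbB receptors and ligands, 2 of 6 were expressed highly enough to be tested and 0 passed. The most abundant was *Nrg1*, which encodes the ERBB3 ligand neuregulin 1, at 63.3 ± 17.8 CPM in iASPP KO and 66.2 ± 21.7 CPM in iASPP WT, with a log2 fold change of -0.05 (adjusted p = 0.892). *Egf* itself had 3, 5 and 41 counts in iASPP KO and 16, 5 and 38 in iASPP WT, and *Erbb4*, the fourth receptor, had at most 11 counts in a library.

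Of 16 genes of ligand release, 1 passed. *Timp3*, a matrix-bound inhibitor of metalloproteases including ADAM17, had 161, 116 and 144 CPM in iASPP KO and 296, 234 and 276 CPM in iASPP WT. These groups did not overlap, and the log2 fold change of *Timp3* was -0.94 (SE 0.11, adjusted p = 0.00192), with a log2 ratio of -0.94 in batch 3. The proteases themselves did not pass the test, with *Adam17* at 141 ± 21.2 CPM against 147 ± 28.0 CPM (log2 fold change -0.05, adjusted p = 0.872) and *Adam10* at 111 ± 26.8 against 111 ± 46.2 CPM (0.07, adjusted p = 0.88). *Timp3* is also made by fibroblasts, whose markers had their highest levels in batch 3 and summed to 68.4 to 91.2 CPM in batches 1 and 2, where the log2 ratios of *Timp3* were -0.88 and -1.01. In the same batches *Col1a2* had log2 ratios of -0.45 and -0.72, *Col3a1* of -0.43 and -1.44 and *Pdgfrb* of -0.83 and -0.98. Those of *Pdgfra* were 1.29 and 1.60. The summed level of the fibroblast markers there was 68.4 and 91.2 CPM in iASPP KO against 77.7 and 83.9 CPM in iASPP WT. Over the 3 batches, 3 of the 12 had a positive log2 fold change and 9 a negative one. The part of fibroblasts in the *Timp3* values was not tested.

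Of 22 genes that dampen the receptors, 0 passed, with a median log2 fold change of -0.02 against 0.01 over all tested genes. The most abundant per length were *Lrig1*, a transmembrane protein that promotes receptor degradation (-0.06, adjusted p = 0.869), and the phosphatase gene *Ptpn2* (-0.43, adjusted p = 0.119). Of 26 genes of the adaptors and the RAS-MAPK core 0 passed, with a median of 0.00, and the most abundant were *Nras* (-0.20, adjusted p = 0.465) and *Hras* (0.10, adjusted p = 0.740). Of 14 genes of the PI3K-AKT and STAT3 arm 0 passed, with a median of 0.07, and *Src* and *Akt1* were the most abundant. The median log2 fold change of the 10 receptor, ligand and inhibitor genes was 0.18, beside the signed median of 0.01 over all tested genes.

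Markers of other cell types were set beside the ligand values because *Ereg* and *Hbegf* are also known from macrophages. Of 12 macrophage and leukocyte markers 7 could be tested and 1 was higher in iASPP KO, *Csf1r*, the receptor of macrophage colony-stimulating factor. Their summed level was 69.4, 76.2 and 86.3 CPM in iASPP KO and 45.6, 61.7 and 69.4 CPM in iASPP WT, higher in the iASPP KO culture of each batch. Over the batches, 6 of the 7 tested had a positive log2 fold change and 1 a negative one. In batches 1 and 2, where the *Ereg* ratio was highest, some of these markers were higher in both iASPP KO cultures and others were not. *Ptprc*, the pan-leukocyte marker, had 7 and 8 counts in iASPP KO against 25 and 0 in iASPP WT. *Fcer1g* had 10 and 0 against 10 and 32, and *Cd68* had 903 and 854 against 637 and 1036. *Itgam* had 0 and 16 against 2 and 0. *Tyrobp* had 3 and 6 against 0 and 0, and *Lyz2* had 108 and 50 against 61 and 27. *Adgre1* had 21 and 1 against 11 and 0, *Cd14* had 45 and 74 against 36 and 42, and *Cd207* had 6 and 3 against 0 and 0. *Trdc*, a T cell receptor gene, had 42 and 48 counts in these iASPP KO cultures against 0 and 1 in iASPP WT and 0 in batch 3, and *Cd3e* was at 0 in all 6 libraries. *Csf1r* itself had 415, 641 and 123 counts in iASPP KO and 194, 368 and 43 in iASPP WT, and the part of these cells in the ligand values was not tested. Endothelial markers summed to 4.2 to 21.4 CPM in iASPP KO and 9.74 to 11.2 CPM in iASPP WT, and 0 of the 4 tested passed. Melanocyte markers summed to 434 to 1070 CPM and 369 to 1130 CPM, and 0 of 8 passed. In bulk RNA, fewer cells of a type and less RNA per cell cannot be told apart, which holds for each level given here.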

How the data were processed

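RNA was sequenced with single reads of 42 bases after ribosomal RNA depletion. The authors aligned reads with STAR 2.7.3 (adapters removed with cutadapt 2.10) assigned them to exons, summed by gene name, using featureCounts 2.0.0, and deposited the counts unnormalized, with GRCm38 positions. The authors' table of their own comparison (log2 fold changes, p-values and adjusted p-values) was not used, and 0 columns of counts were left out. The test used edgeR 4.0.16 (R 4.3.3) with filterByExpr, TMM scaling, glmQLFit and glmQLFTest with batch and condition, and Benjamini-Hochberg adjustment at 0.05. The batch pairing comes from the labels. Deviations of the paired cultures from their condition means correlated at 0.573, 0.665 and 0.759 over 10388 genes. Within-batch log2 values used a prior count of 2. The fit was checked on simulated data.

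The genes and lists were chosen with earlier results of these data known. Named genes were the 10 genes, *Ppp1r13l*, in each list those past the threshold (up to 6) or else the 2 most abundant per length, the 3 genes most like each called gene (1 is not reported here), and flanking genes. Other genes, such as *Mien1*, *Adam17*, *Adam10*, *Egf*, *Erbb4*, *Pdgfra*, *Ptprc*, *Fcer1g*, *Tyrobp* and *Cd3e*, were named after their values were seen. Alternatives were no batch term, DESeq2 1.42.0, other scalings, filters and dispersions, and each batch left out. The tamoxifen concentration is not printed because the sources used here differ on it. Precision from depth covers counting error only.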

Additional observations from a re-analysis of the deposited data

How the results depend on the processing

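The batch term decided the calls. Without it, in the fit with no replicate block, 0 genes were higher and 0 lower by edgeR, with 691 at an unadjusted p under 0.05, none of them among the 10 genes, and 0 of the other pathway genes passed. *Egfr* was then at -0.47 and *Ereg* at 1.08, both with an adjusted p of 0.973. With the replicate block, 323 genes were higher and 291 lower, *Ereg* and *Egfr* among them. Over the 10 alternatives other than the local trend below *Egfr* ran from -0.54 to -0.44 and *Ereg* from 0.74 to 1.25, each past the threshold in 7, with adjusted p from 0.00409 to 0.973 and from 3.87e-14 to 0.973.

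With at least 1 count in any library as the filter, 624 genes were higher and 491 lower, and 2 of the 10 genes were higher, *Tgfa* (adjusted p = 0.00956) with *Ereg*. With each batch left out, 169 to 793 genes were higher and 117 to 662 lower, 0 to 3 of the 10 genes higher and 0 to 1 lower. DESeq2 with a local dispersion trend, chosen after seeing the data, gave 959 and 873 genes, and 2 of the 10 higher (*Ereg* and *Tgfa*).

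The sign was opposite to the main fit for *Areg* and *Btc* without batch 2, and for *Epgn* without batch 3 and with no replicate block (0.018). With each batch left out in turn, *Areg* ran from -0.33 to 0.85, *Btc* from -0.035 to 0.451 and *Epgn* from -0.265 to 0.14. None of these 3 genes passed under any of the 10.

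Of the other pathway genes, 0 were higher in the main fit. *Pik3cb* passed with DESeq2 and with robust dispersion (1 gene each), *Pik3cb* and *Mapk3* with the 1-count filter and without batch 3 (2 each), and 3 with the local trend, *Adam9* added. *Timp3* was the 1 that was lower, and *Ptprk* joined it (2 genes) with DESeq2, median-of-ratios and upper-quartile scaling, both other filters, robust dispersion and without batch 3. The local trend gave 5, with *Nf1*, *Ptpn2* and *Shkbp1* added. Where the cause of these shifts is not the smaller number of cultures, it was not tested. *Areg* and *Btc* had the fewest counts of the 10 genes, 56 to 234 per library, with the widest counting intervals, and the ratios of *Areg* differed between batches 2 and 3 beyond them.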
